A study of Mus musculus with 12 samples.

Results

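The BCL-2 family genes described here are Bcl2, Bcl2l1, Mcl1, Bcl2a1b, Bcl2l11, Bbc3, Pmaip1, Bid, Bax and Bak1. They were taken by symbol from the deposited table of raw read counts, and all 10 of 10 were present among its 55291 symbols. RNA was sequenced from CD8+ T cells of WT male mice, taken from spleen and lymph nodes, in 12 libraries, 3 of each group. Cells of the rat tail collagen group were stimulated through CD3 (antibody on the plate) and CD28 (antibody in solution) over 2 days, grown for 1 day with recombinant interleukin 2 and kept for their last 24 h inside a gel of rat tail collagen at 2 mg/mL, and those of the bovine collagen group inside a gel of bovine collagen at the same concentration. Media cells were stimulated and grown likewise and spent the last 24 h in liquid media, and these 3 groups gave RNA on day 4. Naive cells were lysed fresh on day 0 without stimulation. The genotype is the same throughout, and the labels do not say whether the cells of a library came from 1 mouse.

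The family sets the threshold of mitochondrial apoptosis. Guardian proteins such as BCL-2, BCL-XL, MCL-1 and A1 hold the mitochondrial outer membrane intact by binding the other members. BH3-only proteins such as BIM, PUMA, NOXA and BID are raised or activated by stress and bind the guardians, and BAX and BAK form the pores that release cytochrome c. In T cells BCL-2 is kept up by interleukin 7 and related cytokines, BCL-XL and A1 are induced by activation, and BIM drives the contraction of activated cells.

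In rat tail collagen 3 members rose and 6 fell against media, which makes 9 of 10 called, where 58.4% of all 19392 genes tested were called (29.7% higher and 28.7% lower). Bcl2l11, which encodes BIM, and Bcl2l1, which encodes BCL-XL, rose more than 2-fold, and Bax rose by less. Mcl1, Bak1, Pmaip1, Bbc3, Bcl2 and Bcl2a1b fell, each by less than 2-fold, and Bid was not called. In bovine collagen none of the 10 passed the test of edgeR against media, 1 had an unadjusted p under 0.05, and DESeq2 and limma-voom called none either. There 0.0206% of genes were called. In media against naive cells 5 members rose and 3 fell, where 60.8% of 18610 genes were called (31.6% higher and 29.2% lower). Stimulation, interleukin 2, culture and day differ together in that comparison and cannot be told apart.

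Levels are in CPM, read counts per library size after TMM scaling of the 12 libraries together, and replicates are given in the order 1, 2 and 3. Changes are log2 fold changes with their standard error (SE) from edgeR's quasi-likelihood test. P-values carry the Benjamini-Hochberg adjustment of the whole fit, and a call is an adjusted p under 0.05. Library totals ran from 28483064 to 53138362 counts. The share of counts on rRNA genes was 10.96%, 5.03% and 13.2% in rat tail collagen, 6.41%, 11.9% and 5.50% in bovine collagen, 4.45 to 4.72% in media and 3.96 to 5.67% in naive cells. Malat1, a nuclear RNA, took 1.11 to 1.47% of counts in rat tail collagen, 0.195 to 0.276% in bovine collagen, 0.179 to 0.295% in media and 0.678 to 0.857% in naive cells, which set the rat tail collagen libraries above all others. The 8 CD8 T cell markers all had counts in every group, with sums of 2570 to 2800 CPM in rat tail collagen, 3505 to 3804 in bovine collagen, 3477 to 3902 in media and 4525 to 5369 in naive cells. The 7 myeloid markers summed to 19.6 to 26.1 CPM in rat tail collagen, 10.5 to 11.6 in bovine collagen, 10.2 to 10.7 in media and 39.0 to 137 in naive cells. Within that list the mean of Cd68 was 18.8 CPM for rat tail collagen against 6.23 CPM for media, and that of Itgam was 1.09 CPM for rat tail collagen against 2.98 CPM for media. The 4 CD4 T cell markers summed to 59.7 to 71.0 CPM in rat tail collagen and 29.5 to 36.3 in bovine collagen. Their sums were 25.5 to 38.0 CPM in media and 11.4 to 24.0 in naive cells. Of these 4, 1 was called higher in rat tail collagen against media. The mean of Zbtb7b was 53.8 against 26.0 CPM there, and Foxp3 ran from 3.59 to 19.4 against 0.497 to 4.23 CPM. Cd4 and Cd40lg had lower means in rat tail collagen than in media, at 2.40 against 2.87 CPM and 0.299 against 0.334 CPM. The 4 NK cell markers summed to 93.6 to 158 CPM in rat tail collagen, 242 to 352 in bovine collagen, 237 to 353 in media and 120 to 157 in naive cells. Of these Klrb1c went the other way, with a mean of 8.70 CPM in rat tail collagen against 0.324 CPM in media. Sums in rat tail collagen against media were 73.5 to 79.5 against 131 to 147 CPM for 5 stromal markers, 1.17 to 2.49 against 0.043 to 0.12 CPM for 4 red cell markers and 712 to 1038 against 895 to 1017 CPM for 6 B cell markers. Within the stromal list the mean of Pecam1 was 70.0 CPM for rat tail collagen against 137 CPM for media. Other stromal genes went the other way, with Col1a1 at 4.29 against 0.311 CPM, Fn1 at 1.71 against 0.161 and Pdgfrb at 1.17 against 0.505. The part of these differences in the results was not tested. In such bulk libraries fewer cells of a kind and less RNA per cell cannot be told apart.

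The 3 libraries of rat tail collagen lay on one side of those of media for 7 of 10 members (63.6% of the 20008 genes compared this way), of bovine collagen for 7 (62.6%) and of naive cells for 8 (75.3%). Bovine collagen was separate from media for 2 members (8.79%) and from naive cells for 9 (66.4%), and media from naive cells for 7 (65.2%).

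**Figure D1:**
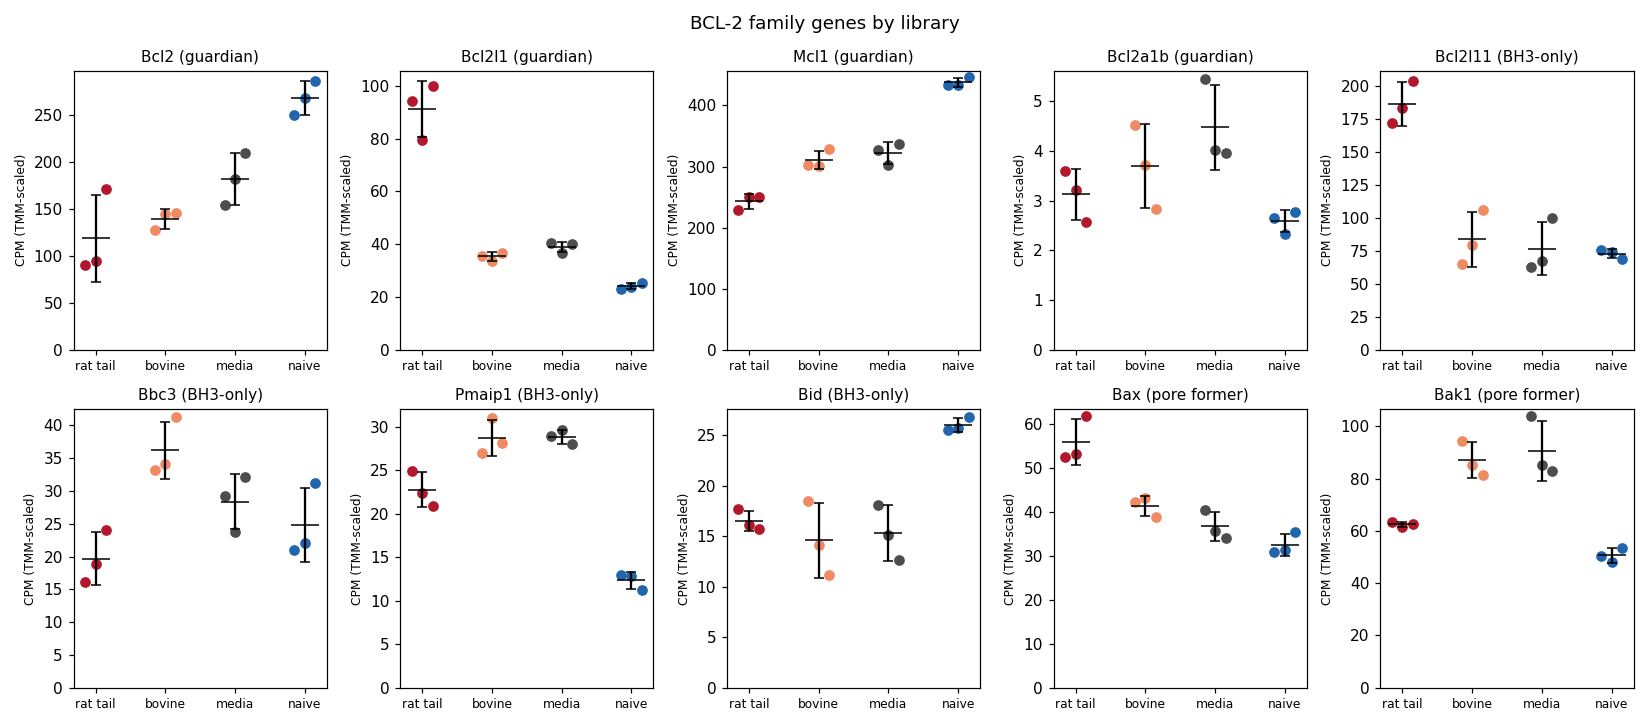
Each panel plots the level of 1 member in CPM (vertical axis, from 0) in the 3 libraries of rat tail collagen, bovine collagen, media and naive cells, with the group mean and SD in black. Bcl2l11 sits between 172 and 204 CPM in rat tail collagen against 62.6 to 99.4 CPM in media, and Bcl2 shows 1 rat tail collagen library at 172 CPM above the other two.

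The clearest guardian change was in Bcl2l1 (GRCm38 chromosome 2, 152780668 to 152831728, minus strand). It had 94.4, 79.4 and 99.9 CPM in rat tail collagen, 35.5, 33.6 and 36.8 CPM in bovine collagen, 40.4, 36.7 and 39.9 CPM in media and 22.9, 23.8 and 25.2 CPM in naive cells. The rat tail collagen libraries lay above all others, media and bovine collagen overlapped, and naive cells were lowest. Bcl2l1 rose 2.32-fold in rat tail collagen against media (log2 1.22, SE 0.087, adjusted p = 4.99e-07) and 2.57-fold against bovine collagen (log2 1.36, adjusted p = 2.89e-07). It was also 1.70-fold higher in media than in naive cells (log2 0.76, adjusted p = 2.24e-05). Every alternative tried kept these calls of Bcl2l1. Offsets for GC content and length gave 0.67 against media, and 0.88 when centred per library, and leaving out single libraries gave 1.15 to 1.31 on the log2 scale against media.

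Bcl2 (chromosome 1, 106538178 to 106714274, minus strand), the founding guardian, ran the other way. Its levels were 90.1, 94.2 and 172 CPM in rat tail collagen, 127, 145 and 146 CPM in bovine collagen, 154, 182 and 209 CPM in media and 250.2, 268 and 287 CPM in naive cells. Naive cells were the highest without overlap, and the third rat tail collagen library lay among those of media. Bcl2 fell 1.41-fold in media against naive cells (log2 -0.50, SE 0.11, adjusted p = 0.00416). It fell 1.54-fold in rat tail collagen against media (log2 -0.63, SE 0.22, adjusted p = 0.0317), but that call rests on few libraries. The exons of Bcl2 share 558 bases with the antisense gene D630008O14Rik. Without rat tail collagen 1 or 2 the adjusted p was 0.104 and 0.101, without media 2 or 3 it was 0.0530 and 0.117, without bovine collagen 1 or 3 it was 0.0532 and 0.0584, and without rat tail collagen 3 the value was -0.99 (adjusted p = 1.43e-04). The call was also lost with no filter (adjusted p = 0.119) and with only the 6 libraries compared (0.0778). Against bovine collagen Bcl2 was at -0.24 (adjusted p = 0.386), and without rat tail collagen 3 it was at -0.60 and passed (0.00317). In bovine collagen against media the 3 libraries lay below those of media and the value of -0.39 did not pass (adjusted p = 1, interval at 95% from -0.88 to 0.10).

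Mcl1 (chromosome 3, 95658788 to 95663176, plus strand), whose short-lived protein is needed by T cells at every stage, was the most abundant member per length of exon in each group. It had 229, 250 and 251 CPM in rat tail collagen, 302, 301 and 328 CPM in bovine collagen, 327, 302 and 336 CPM in media and 434, 433 and 446 CPM in naive cells. Naive libraries lay above and rat tail collagen libraries below all others, with media and bovine collagen overlapping. Mcl1 fell 1.33-fold in rat tail collagen against media (log2 -0.41, SE 0.073, adjusted p = 5.02e-04), 1.29-fold against bovine collagen (log2 -0.36, adjusted p = 0.00142) and 1.30-fold in media against naive cells (log2 -0.38, adjusted p = 0.00180). With library totals in place of TMM factors the value against bovine collagen was -0.22 and was not called (adjusted p = 0.132), while the median of all genes stood at 0.15 there.

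Bcl2a1b (chromosome 9, 89199209 to 89207827, plus strand), an A1 gene, had the lowest mean CPM of the members in each group, with 3.59, 3.22 and 2.57 CPM in rat tail collagen, 4.52, 3.73 and 2.83 CPM in bovine collagen, 5.46, 4.01 and 3.96 CPM in media and 2.65, 2.34 and 2.77 CPM in naive cells. Its annotated transcript shares 99.1% of bases with Bcl2a1d and 98.2% with Bcl2a1a, and 401 bases of its exons lie in Gm29094 on the same strand, so its own count is uncertain. It rose 1.81-fold in media against naive cells (log2 0.85, adjusted p = 0.00278), as did Bcl2a1d (log2 1.29, adjusted p = 0.00145) and Bcl2a1a (log2 0.98, adjusted p = 0.00563). In rat tail collagen against media Bcl2a1b was just past the threshold (log2 -0.53, SE 0.21, adjusted p = 0.0455). The counts of the 3 copies summed gave -0.39 (adjusted p = 0.0731), and leaving out media 1 or rat tail collagen 3 gave -0.38 (0.152) and -0.40 (0.149). Bcl2a1a and Bcl2a1d were at -0.41 (adjusted p = 0.128) and -0.28 (adjusted p = 0.235).

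The BH3-only member with the largest fold in both comparisons of rat tail collagen was Bcl2l11 (chromosome 2, 128126038 to 128162547, plus strand). It had 172, 183 and 204 CPM in rat tail collagen, 65.2, 79.2 and 106 CPM in bovine collagen, 62.6, 66.9 and 99.4 CPM in media and 75.5, 74.1 and 68.8 CPM in naive cells. Rat tail collagen stood above every other library and the other 3 groups overlapped each other. Bcl2l11 rose 2.42-fold in rat tail collagen against media (log2 1.28, SE 0.20, adjusted p = 2.15e-04) and 2.22-fold against bovine collagen (log2 1.15, adjusted p = 4.98e-04). Its value in media against naive cells was 0.13 (adjusted p = 0.498), with an interval at 95% from -0.22 to 0.48. Leaving out single libraries kept the change against media between 1.14 and 1.51.

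Bcl2l11, Bcl2l1 and Bax were the 3 members that rose in both comparisons of rat tail collagen, and their promoters are shown for that reason. RefSeq promoter windows, 250 bases before to 50 after a start, were found for 9 of the 10 members on GRCm38.p6, and the window at the GENCODE start is printed 5′ to 3′. They span chr2:128125788-128126087 on the plus strand for Bcl2l11, chr2:152831679-152831978 on the minus strand for Bcl2l1 and chr7:45466849-45467148 on the minus strand for Bax. Capitals mark GTAAACA, a core of FOXO sites, and CACGTG, an E-box. TTCNNNGAA of STAT sites and TGACGTCA of CRE sites were searched as well, each on both strands.
Bcl2l11: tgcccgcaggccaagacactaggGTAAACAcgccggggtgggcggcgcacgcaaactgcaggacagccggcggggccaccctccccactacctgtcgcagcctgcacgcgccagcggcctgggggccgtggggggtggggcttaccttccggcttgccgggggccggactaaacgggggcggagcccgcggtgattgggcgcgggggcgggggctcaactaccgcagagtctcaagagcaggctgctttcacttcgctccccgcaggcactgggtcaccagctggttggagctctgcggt
Bcl2l1: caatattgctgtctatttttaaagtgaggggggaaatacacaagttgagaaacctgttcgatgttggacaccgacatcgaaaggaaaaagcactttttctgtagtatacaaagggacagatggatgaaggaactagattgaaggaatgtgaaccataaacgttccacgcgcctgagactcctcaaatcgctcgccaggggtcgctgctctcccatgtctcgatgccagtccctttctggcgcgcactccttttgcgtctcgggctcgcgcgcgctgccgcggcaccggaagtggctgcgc
Bax: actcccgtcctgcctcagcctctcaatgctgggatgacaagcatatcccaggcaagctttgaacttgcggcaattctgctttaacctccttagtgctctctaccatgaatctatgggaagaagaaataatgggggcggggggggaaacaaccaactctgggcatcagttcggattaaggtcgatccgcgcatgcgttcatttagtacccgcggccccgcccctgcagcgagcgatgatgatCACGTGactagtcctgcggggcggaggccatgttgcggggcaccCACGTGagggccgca
The window of Bcl2l11 holds GTAAACA once, at base 24, and 3.65% of the 32851 promoters in the table hold it on either strand. The window of Bax holds CACGTG at bases 242 and 286, a sequence found in 7.15% of promoters. In the window of Bcl2l1 none of the 4 motifs was found. Bcl2l11 and Bcl2l1 have further windows in the table that are not printed. That of Bcl2l11, at chr2:128127325-128127624, held none of the 4 motifs, so GTAAACA was not in every window of this gene. The further windows of Bcl2l1 held none either. Of the other members with a window, Bbc3, which fell in rat tail collagen, holds GTAAACA on the minus strand at base 84 of one of its windows and CACGTG at base 187 of another. TTCNNNGAA was in 8.30% and TGACGTCA in 1.79% of all promoters. An NF-kB motif searched as well stood in 50.8% of promoters and, once that was seen, was not marked. A match of letters describes the sequence and shows no binding.

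Bbc3 (chromosome 7, 16308393 to 16318205, plus strand), which encodes PUMA, a target of p53 and FOXO factors, was lowest in rat tail collagen and highest in bovine collagen. It had 16.1, 18.9 and 24.1 CPM in rat tail collagen, 33.2, 34.2 and 41.2 CPM in bovine collagen, 29.3, 23.7 and 32.1 CPM in media and 21.0, 22.0 and 31.3 CPM in naive cells. Rat tail collagen lay below bovine collagen without overlap, while its highest library passed the lowest of media. Bbc3 fell 1.85-fold in rat tail collagen against bovine collagen (log2 -0.89, SE 0.15, adjusted p = 3.88e-04) and 1.45-fold against media (log2 -0.54, SE 0.15, adjusted p = 0.00875). With offsets for GC content and length these values were -1.73 and -1.43, and -1.52 and -1.23 with the offsets centred per library. The bovine collagen libraries all lay above those of media (log2 0.35, unadjusted p = 0.0354, adjusted p = 1), and Bbc3 is the 1 member with an unadjusted p under 0.05 there. Media against naive cells gave 0.26 (adjusted p = 0.180), which passed without naive 3 (0.44, adjusted p = 0.0207) and with no filter (0.28, adjusted p = 0.0225).

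Pmaip1 (chromosome 18, 66458533 to 66465565, plus strand) encodes NOXA, which binds MCL-1 and promotes its loss. It had 24.9, 22.4 and 20.9 CPM in rat tail collagen, 26.9, 31.0 and 28.1 CPM in bovine collagen, 28.9, 29.6 and 28.0 CPM in media and 12.9, 12.8 and 11.2 CPM in naive cells. Naive cells were lowest, rat tail collagen came next, and bovine collagen and media overlapped. Pmaip1 had the largest change of the members between media and naive cells, 2.44-fold higher in media (log2 1.29, SE 0.092, adjusted p = 3.44e-06). It fell 1.28-fold in rat tail collagen against media (log2 -0.35, adjusted p = 0.00456) and 1.27-fold against bovine collagen (log2 -0.34, adjusted p = 0.00614), and with library totals the value against bovine collagen was -0.19 and was not called (adjusted p = 0.165).

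Bid (chromosome 6, 120891930 to 120916853, minus strand), which links death receptors to the mitochondrion once cut by caspase 8, changed only between naive and media among the 4 comparisons. It had 17.7, 16.1 and 15.8 CPM in rat tail collagen, 18.5, 14.1 and 11.2 CPM in bovine collagen, 18.1, 15.2 and 12.7 CPM in media and 25.5, 25.7 and 26.8 CPM in naive cells. The 3 groups of day 4 overlapped each other and lay below naive cells. Bid fell 1.62-fold in media against naive cells (log2 -0.70, SE 0.12, adjusted p = 9.61e-04). In rat tail collagen against media it was at 0.10 (adjusted p = 0.638, interval at 95% from -0.27 to 0.47). Its exons share 628 bases with Bcl2l13 on the other strand, and the strand setting of the counting is not given in the sources used here.

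Bax and Bak1, which encode the pore formers, moved in opposite directions in rat tail collagen. Bax (chromosome 7, 45461697 to 45466898, minus strand) had 52.5, 53.2 and 61.9 CPM in rat tail collagen, 42.3, 43.2 and 38.9 CPM in bovine collagen, 40.6, 35.6 and 34.1 CPM in media and 31.0, 31.3 and 35.5 CPM in naive cells. Bak1 (chromosome 17, 27019810 to 27029009, minus strand) had 63.4, 61.5 and 62.7 CPM in rat tail collagen, 94.5, 85.3 and 81.5 CPM in bovine collagen, 104, 85.2 and 83.0 CPM in media and 50.4, 48.1 and 53.6 CPM in naive cells. For Bax rat tail collagen lay above all other libraries, and for Bak1 it lay between naive cells and the overlapping groups of media and bovine collagen. Bax rose 1.51-fold in rat tail collagen against media (log2 0.60, SE 0.088, adjusted p = 1.35e-04) and 1.34-fold against bovine collagen (log2 0.42, adjusted p = 0.00171). These calls of Bax were lost or turned round with offsets for GC content and transcript length, at -0.13 against media (adjusted p = 0.117) and -0.27 against bovine collagen (adjusted p = 0.00621). With the offsets centred per library, a form added after that output was seen, the values were 0.08 (adjusted p = 0.341) and -0.06 (adjusted p = 0.477). Bak1 fell 1.46-fold against media (log2 -0.54, SE 0.088, adjusted p = 2.63e-04) and 1.40-fold against bovine collagen (log2 -0.49, adjusted p = 6.67e-04), and its values were -1.11 and -1.04 with these offsets and -0.90 and -0.83 with them centred. Bak1 rose 1.87-fold in media against naive cells (log2 0.90, adjusted p = 3.78e-05). Bax was near the threshold there (log2 0.24, adjusted p = 0.0440), a call lost without media 1 or 2 (adjusted p = 0.0984 and 0.0806), without naive 1 or 2 (0.189 and 0.182), with RLE factors (0.0648), with library totals (0.0661), with DESeq2 (0.0771), with the 1 CPM filter (0.0507) and with all 12 libraries in the fit (0.115). Bax shares 192 exon bases with Gm45808 on its own strand, and Bak1 overlaps Ggnbp1 on the other strand.

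**Figure D2:**
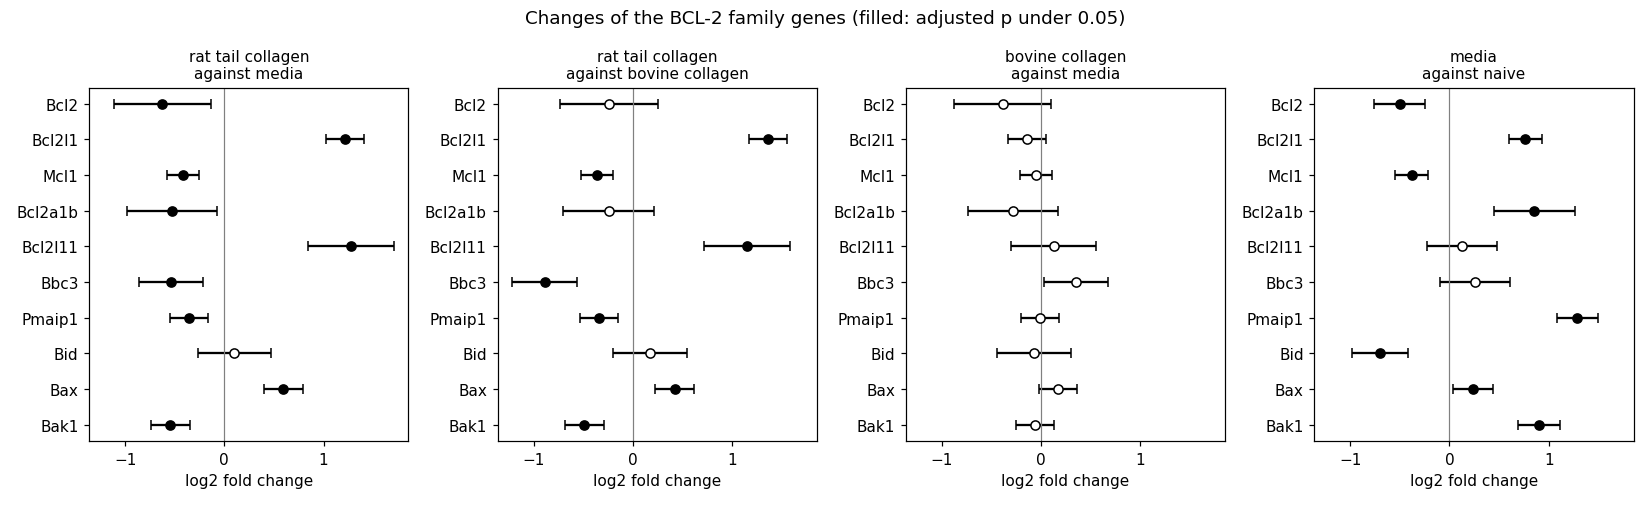
Points are log2 fold changes of the 10 members (first-named group over second) with intervals at 95%, filled where the adjusted p is under 0.05, in 4 comparisons. Bcl2l1 and Bcl2l11 stand above 1 in both comparisons of rat tail collagen, and no point is filled for bovine collagen against media.

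Rat tail collagen against bovine collagen called 7 of the 10 members, 3 higher and 4 lower, where 54.7% of genes were called (28.4% higher and 26.4% lower). The 3 that rose were Bcl2l1, Bcl2l11 and Bax, and the 4 that fell were Mcl1, Bbc3, Pmaip1 and Bak1. These 7 were called in the same direction against media, and both comparisons share the rat tail collagen libraries. Leaving out rat tail collagen 1 and 3 and bovine collagen 2, whose rRNA shares were the highest, 3 members were called against bovine collagen and 6 against media, with a lone rat tail collagen library taken to vary like the other groups. All genes called were then 5485 in place of 10617 against bovine collagen and 6726 in place of 11319 against media. The values of the members that lost their call there stayed close to those with all libraries. Against bovine collagen these were Mcl1 at -0.34 (adjusted p = 0.102), Pmaip1 at -0.29 (0.114), Bax at 0.39 (0.0678) and Bak1 at -0.52 (0.0576), and against media they were Mcl1 at -0.37 (0.0574), Bbc3 at -0.59 (0.0548) and Bcl2a1b at -0.48 (0.296). With library totals 5 members were called against bovine collagen, and 6329 genes were higher and 3221 lower, in place of 5499 higher and 5118 lower, while the offsets for GC content gave 3954 higher and 7702 lower. The median log2 fold change of the members was -0.24, and that of all genes tested was 0.00 to 2 decimals (0.00256).

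Levels of different genes were set beside each other as CPM per kilobase of exon. In rat tail collagen Mcl1 was at 71.1 ± 3.61, Bax at 35.5 ± 3.32, Bak1 at 26.0 ± 0.405, Bcl2l11 at 23.2 ± 2.06, Bcl2l1 at 19.9 ± 2.31 and Bcl2 at 13.0 ± 5.04 CPM per kilobase (SD, n = 3). In media Mcl1 was at 94.1 ± 5.19, Bak1 at 37.7 ± 4.75, Bax at 23.3 ± 2.15, Bcl2 at 19.8 ± 3.02, Bcl2l11 at 9.51 ± 2.51 and Bcl2l1 at 8.50 ± 0.438. In naive cells Mcl1 was at 128 ± 2.07, Bcl2 at 29.3 ± 2.01, Bak1 at 21.0 ± 1.15, Bax at 20.7 ± 1.60, Bcl2l11 at 9.07 ± 0.438 and Bcl2l1 at 5.22 ± 0.248. Bcl2 thus held the second place in naive cells, the fourth in media and the sixth in rat tail collagen, while Bcl2l11 and Bcl2l1 both stood above Bcl2 in rat tail collagen. Exon length is that of all annotated exons joined, so isoform use can shift these values.

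Ratios of 2 members within a library do not depend on the scaling between libraries. They were taken without the offsets for GC content and length. The 5 ratios in 4 comparisons make 20 exact two-sided permutation tests, and 3 against 3 libraries cannot give a p below 0.1. Bcl2 over Bcl2l11, in counts per length, was 0.461, 0.452 and 0.739 in rat tail collagen, 1.71, 1.60 and 1.20 in bovine collagen, 2.16, 2.38 and 1.85 in media and 2.91, 3.18 and 3.66 in naive cells. No groups overlapped, and the log2 difference was -1.98 for rat tail collagen minus media, -0.51 for bovine collagen minus media, -1.47 for rat tail collagen minus bovine collagen and -0.61 for media minus naive (exact permutation p = 0.1 for each, Benjamini-Hochberg 0.133).

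Mcl1 over Bcl2l11 was 3.13, 3.20 and 2.88 in rat tail collagen, 10.9, 8.93 and 7.26 in bovine collagen, 12.3, 10.6 and 7.94 in media and 13.5, 13.7 and 15.2 in naive cells. Rat tail collagen again lay below the rest (log2 difference -1.72 to media, exact permutation p = 0.1), and bovine collagen overlapped media (-0.18, exact permutation p = 0.5). Bcl2l1 over Bcl2 was 2.09, 1.68 and 1.16 in rat tail collagen, 0.558, 0.464 and 0.504 in bovine collagen, 0.523, 0.403 and 0.380 in media and 0.183, 0.177 and 0.175 in naive cells. Its log2 difference was 1.89 for rat tail collagen minus media and 1.27 for media minus naive (exact permutation p = 0.1 for each). Only in rat tail collagen, among the 4 groups, did Bcl2l1 exceed Bcl2 per length in all 3 libraries.

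Bax over Bcl2 was 3.39, 3.28 and 2.09 in rat tail collagen, 1.93, 1.73 and 1.55 in bovine collagen, 1.53, 1.14 and 0.946 in media and 0.721, 0.678 and 0.719 in naive cells, with no overlap between any 2 of the groups compared. The log2 difference was 1.27 for rat tail collagen minus media (exact permutation p = 0.1). The offsets for GC content and length, with which the rise of Bax was lost, were not applied to this ratio. With them centred, rat tail collagen had Bax at 0.08 and Bcl2 at -0.63 against media, and at -0.058 and -0.22 against bovine collagen. Mcl1 over Pmaip1 was 7.35, 8.90 and 9.59 in rat tail collagen and 9.06, 8.15 and 9.60 in media, which overlapped (log2 difference -0.06, exact permutation p = 0.6). Against naive cells, at 26.9, 27.0 and 31.7, media was lower by a log2 difference of -1.67 (exact permutation p = 0.1).

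**Figure D3:**
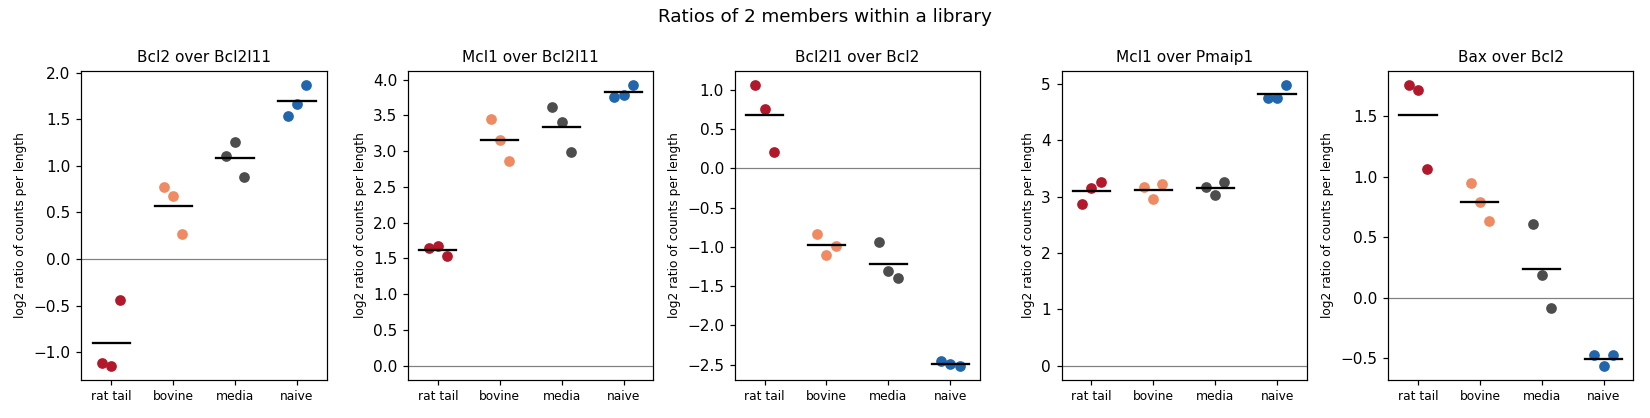
Each panel shows the log2 ratio of counts per exon length of 2 members in every library (points) with the group mean (line), for rat tail collagen, bovine collagen, media and naive cells. Bcl2 over Bcl2l11 is below 0 in the 3 rat tail collagen libraries and above 0 in the other 9, and Mcl1 over Pmaip1 sets naive cells apart from the rest.

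Other genes of the family were read from a list of 18, of which 14 passed the filter on low counts. Against media, rat tail collagen had 4 higher and 3 lower (list median 0.03, all genes -0.01), where 29.7% of all genes were higher and 28.7% lower. Bmf, a BH3-only gene whose protein is bound to the cytoskeleton in resting cells, ran from 87.9 to 115 CPM (median 91.1) in rat tail collagen against 23.0 to 30.9 CPM (median 24.8) in media, with no overlap (log2 1.89, SE 0.13, adjusted p = 2.88e-07). Bcl2l2, which encodes the guardian BCL-W, ran from 20.8 to 25.5 CPM (median 24.5) in rat tail collagen against 12.7 to 13.0 CPM (median 12.9) in media, also without overlap (log2 0.87, adjusted p = 1.85e-05). Bcl2l14 (log2 2.71, adjusted p = 7.24e-06) and Bcl2l15 (log2 2.26, adjusted p = 8.02e-05) rose at levels of 1.84 and 1.16 CPM in rat tail collagen.

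Against bovine collagen 5 of the 14 rose and 2 fell, where 54.7% of all genes were called. Bmf rose by log2 1.58 (adjusted p = 1.26e-06) and Bcl2l2 by 0.86 (adjusted p = 2.49e-05), while Bnip3l, a mitophagy receptor gene, fell (-0.50, adjusted p = 2.04e-04). In media against naive cells 9 of the 14 rose and 0 fell (list median 0.68, all genes 0.00 to 2 decimals), where 31.6% of all genes rose and 29.2% fell. There Bcl2l2 was at 12.9 ± 0.111 CPM in media and 2.36 ± 0.439 CPM in naive cells (log2 2.51, adjusted p = 1.13e-06), Bnip3, also of mitophagy, rose by 3.17 (adjusted p = 3.24e-06), and Bmf rose by 1.30 (adjusted p = 2.73e-05). In bovine collagen against media 0 of the 14 were called by edgeR, beside 0.0206% of all genes, and Bmf was at 0.31 (adjusted p = 1).

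**Figure D4:**
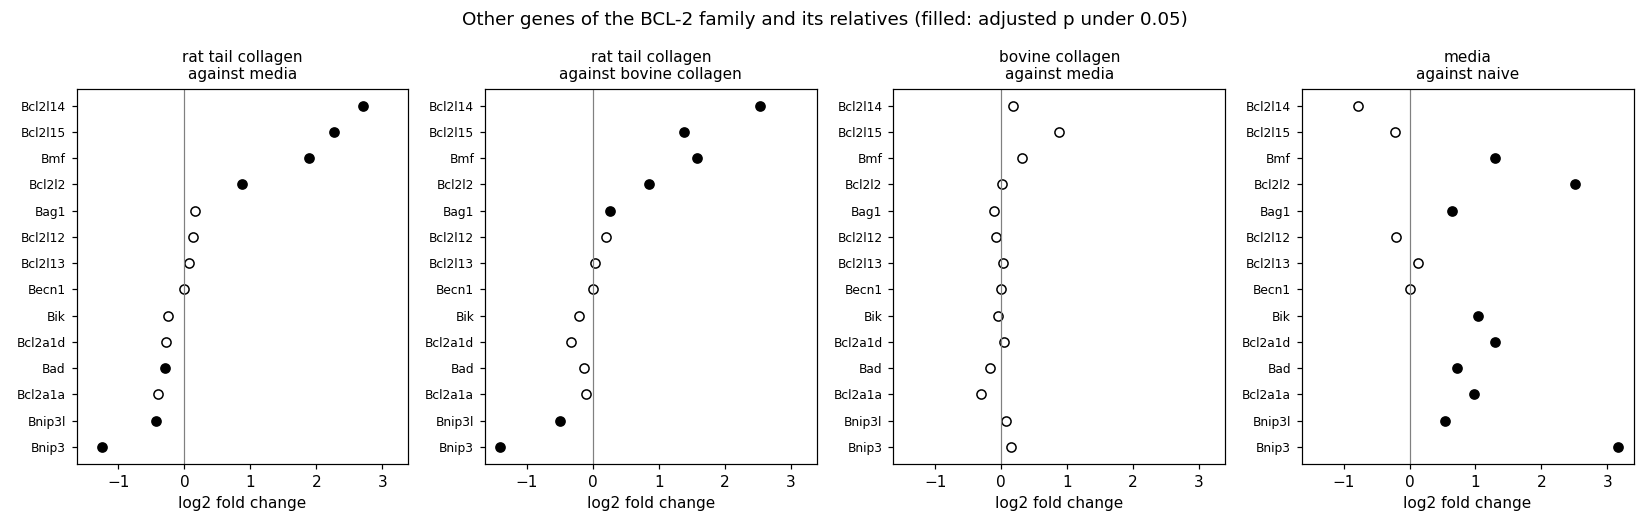
Points are log2 fold changes (first-named group over second) of the 14 tested genes of the wider family in 4 comparisons, filled where the adjusted p is under 0.05. Bmf and Bcl2l2 are filled and above 0 in both comparisons of rat tail collagen and in media against naive cells. Bnip3 is higher in media than in naive cells and lower in rat tail collagen.

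Downstream of the family lies a list of 20 genes of the apoptosome, caspases and their inhibitors, all of which passed the filter. Against media, 6 of them rose and 10 fell in rat tail collagen (list median -0.22, all genes -0.01), where 58.4% of all genes were called. Casp8, the initiator caspase of death receptors, fell to 63.7 ± 0.499 CPM in rat tail collagen, against 104 ± 5.61 CPM in media (log2 -0.72, adjusted p = 6.72e-06), Vdac2, a channel of the outer membrane that holds BAK, fell by 0.64 (adjusted p = 1.13e-05), Casp2 by 0.56 (adjusted p = 2.21e-05), and Htra2, a mitochondrial protease, rose by 0.77 (adjusted p = 7.29e-05). In media against naive cells 8 rose and 4 fell, where 60.8% of all genes were called. Apaf1, the apoptosome scaffold, was at 137 ± 2.80 CPM in media and 47.5 ± 2.08 CPM in naive cells (log2 1.60, adjusted p = 1.56e-07).

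Of 14 genes of death receptor signalling 4 rose and 6 fell in rat tail collagen against media (list median -0.12), beside the same 58.4% of all genes. Tnfrsf1b, a TNF receptor without a death domain, rose (log2 0.89, adjusted p = 1.27e-06), while Ripk1 (-0.65, adjusted p = 3.43e-06), the ligand gene Tnfsf10 (-1.19, adjusted p = 2.08e-05) and Fas (-0.59, adjusted p = 6.97e-05) fell. In media against naive cells 4 rose and 4 fell, where 60.8% of all genes were called. Mlkl, the executor of necroptosis, was at 21.5 ± 1.27 CPM in media and 0.882 ± 0.373 CPM in naive cells (log2 4.67, adjusted p = 2.66e-07). The ligand gene Fasl rose by 2.31 (adjusted p = 6.13e-05). In a list of 20 genes known to act on the members, 7 rose and 6 fell in rat tail collagen against media (list median 0.15), again beside 58.4% of all genes. Il7r, a receptor that sustains BCL-2, ran from 132 to 143 CPM (median 134) in rat tail collagen, against 356 to 385 CPM (median 379) in media (log2 -1.46, adjusted p = 7.34e-08). Il2ra, the high-affinity interleukin 2 receptor chain, ran from 624 to 1068 CPM (median 626) in rat tail collagen against 267 to 298 CPM (median 285) in media (log2 1.44, adjusted p = 3.37e-05), and Stat5a rose by 0.60 (adjusted p = 4.88e-05) where Rel, an NF-kB subunit gene, fell (-1.21, adjusted p = 1.26e-05). In media against naive cells 5 of the 19 tested rose and 10 fell, where 31.6% of all genes rose and 29.2% fell. Atf4 was among those that fell (-0.95, adjusted p = 2.95e-05). No gene of these 3 lists was called by edgeR in bovine collagen against media, where 0.0206% of all genes were called.

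The patterns most like those of 4 members were sought over the 12 libraries by Pearson's r of log2 CPM, as a description of 4 groups that share their libraries. Nearest to Bcl2 were Pik3r5 (r = 0.965), Ptger4 (0.961) and Trappc11 (0.955). Nearest to Mcl1 were Alkbh4 (0.994), Wdr41 (0.992) and Clec2d (0.992), the last at 62.2 CPM in rat tail collagen, 119 in bovine collagen, 133 in media and 262 in naive cells. Nearest to Bcl2l11 were Arid5b (0.977), Mbnl2 (0.972) and Atat1 (0.971), with Arid5b at 144 CPM in rat tail collagen, 75.8 in bovine collagen, 72.0 in media and 64.3 in naive cells. Nearest to Pmaip1 were Slc25a24 (0.996), Kif20b (0.994) and Haus6 (0.993), with Kif20b, a mitotic kinesin gene, at 84.8 CPM in rat tail collagen, 139 in bovine collagen, 148 in media and 18.4 in naive cells. Among the members, r over the 12 libraries was 0.921 for Bcl2l1 with Bax, 0.883 for Bcl2l1 with Bcl2l11, 0.883 for Bcl2 with Mcl1, 0.883 for Pmaip1 with Bak1 and -0.915 for Bcl2l1 with Mcl1.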

How the data were processed

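A single table of raw counts per gene symbol, deposited by the authors, covers the 12 libraries. Per the submitters' processing notes, FastQC, MultiQC, HISAT2, SAMtools, Picard and featureCounts were used, and GRCm38 and mm10 are named as builds. The sources used here give no tool versions, strand setting or annotation release. Per the labels, 150 ng of RNA went into each library after rRNA depletion.

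Counts were tested in R 4.3.3 with edgeR 4.0.16 (filterByExpr, TMM factors, robust quasi-likelihood F test, Benjamini-Hochberg adjustment). DESeq2 1.42.0 and limma 3.58.1 were alternatives. The 9 libraries of day 4 shared 1 fit (19392 genes, biological coefficient of variation 12.2%), and media and naive another (18610 genes, 13.5%). The labels name no separate animals, so p-values measure the spread between these libraries, which may be technical. The members and lists were chosen with earlier results of these data known. Named genes were all members, up to 4 per list and comparison ranked by adjusted p, of which part is given, and the 3 most like patterns for 4 members. Gene positions, exon lengths and overlaps were read from GENCODE M21 (GRCm38), where 53291 symbols were found. Offsets for GC content and length (known for 97.4% of genes) were run as planned, then also centred per library so that the TMM scaling was kept, a form added after the first output was seen. The fits were also run on simulated data, but the outcome is not given here and no call rests on it. A further result is not reported here.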

Additional observations from a re-analysis of the deposited data

How the results depend on the processing

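Alternatives were DESeq2, limma-voom, RLE factors, library totals, other filters, other sets of libraries, no rRNA genes, no robust estimation, offsets for GC content and length, a replicate block and leaving out single libraries. Summed Bcl2a1 copies and centred offsets were added after seeing the data. Against media 9 members were called in rat tail collagen, 7 to 8 without single libraries, and against bovine collagen 7, then 7 to 8. Without single libraries, all genes called ran from 9986 to 11723 against media and from 9346 to 11471 against bovine collagen. In bovine collagen against media 0 members were called under every alternative run. For media against naive cells 8 were called, 7 to 9 without single libraries, beside 10136 to 11310 of all genes. Without the 3 libraries of highest rRNA share, 6726 genes were called in rat tail collagen against media, and 5485 genes and 3 members against bovine collagen. For bovine collagen against media the count of all genes was 4, and became 22 with DESeq2, 9 with library totals, 39 with no filter, 2 with only the 6 libraries, 7 with the replicate block, 1 without the 3 libraries and 2 to 5 without single libraries (2 without media 2).

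Same-numbered libraries did not deviate together throughout (correlations from -0.025 to 0.444), and the labels do not say that a number marks a shared animal. The highest were between bovine collagen and media, at 0.373 for number 1 and 0.444 for number 3, beside 0.029 for number 2. Yet the best match of a library in any other group had its own number for all but naive 3 and bovine collagen 2. Both of these matched media 1 best (0.137 and 0.061). Rat tail collagen 1, 2 and 3 matched naive 1, 2 and 3 best, at 0.148, 0.046 and 0.129. A structure shared by number therefore remains possible, and the main fits and permutation tests took no account of it. With the replicate block 9, 0, 7 and 7 members were called for rat tail collagen and then bovine collagen against media, rat tail against bovine collagen, and media against naive cells, beside 12070, 7, 11402 and 10407 of all genes, and Bax in the last was at 0.23 (adjusted p = 0.0970).

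Offsets for GC content and length turned Bid to -0.26 and Bax to -0.13 in rat tail collagen against media, Bid to -0.17 and Bax to -0.27 against bovine collagen, and Pmaip1 to 0.029 in bovine collagen against media. The median of all genes stood at -0.20 and -0.19 in the comparisons of rat tail collagen there, with 4248 genes higher and 7990 lower against media. Centred, they gave -0.044 for Bid against media, 0.12 for Bcl2a1b and -0.058 for Bax against bovine collagen, and 0.032 for Pmaip1 in bovine collagen against media. The cause was not tested. Bcl2a1b in rat tail collagen against media lost its call in 12 settings, with adjusted p up to 0.700 for centred offsets.

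Some members that were not called changed sign without single libraries. Bid ran from -0.027 to 0.22 in rat tail collagen against media, from -0.00014 to 0.37 against bovine collagen and from -0.28 to 0.10 in bovine collagen against media. In the last, Bcl2l11 ran from -0.075 to 0.37, Pmaip1 from -0.075 to 0.035 and Bak1 from -0.12 to 0.040, and Bcl2l11 ran from -0.10 to 0.26 in media against naive cells. The log2 ratio of Mcl1 over Pmaip1 ran from -0.14 to 0.051 in rat tail collagen against media, -0.11 to 0.038 in bovine collagen against media and -0.099 to 0.093 in rat tail collagen against bovine collagen. With 3 libraries a group, small changes of scarce genes such as Bcl2a1b could not be told from the spread.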
